A study of Mus musculus with 12 samples.

Results

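Globin genes encode the protein chains of hemoglobin, and 8 of them were followed here among the 27998 genes of the count tables. They are the adult beta-like genes Hbb-bs and Hbb-bt, the adult alpha genes Hba-a1 and Hba-a2, the embryonic genes Hbb-bh1, Hbb-y and Hba-x, and the theta gene Hbq1b. The members were chosen by name, with earlier results of these data known. Their UMIs, unique molecular identifiers that each mark a captured RNA molecule, were counted per library in globin-high cells and in all other cells. A cell was called globin-high when the 4 adult genes together made up at least 1000 of every 10000 UMIs of that cell. This held for 2607 of 32701 cells, and 30094 cells fell below the limit.

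Hemoglobin carries oxygen as a tetramer of alpha-like and beta-like chains, each holding a heme group. The genes of each family lie side by side in the order in which they are used in development, and a distal enhancer region, the locus control region of the beta family, acts on them in turn. Erythroid cells of the yolk sac use the embryonic genes Hbb-y, Hbb-bh1 and Hba-x, and definitive erythroid cells of fetal liver and adult marrow use the adult genes. Immature erythroid cells in marrow carry c-Kit on their surface, and they lose it as they mature and fill with hemoglobin.

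The libraries came from c-Kit-positive bone marrow cells of C57BL/6 mice, sequenced with 10x Genomics 3' chemistry. All mice were given 5 injections of pIpC, which induces Mx1-Cre, at an age of 8 to 12 weeks by the labels. The text of the study gives a younger age at injection. E2-KO mice were Mx1-Cre+;Ezh2 f/f and lose the H3K27 methyltransferase EZH2, G12D mice were Mx1-Cre+ with an activated NRas G12D/+ allele, G12D/E2-KO mice carried both, and WT mice were Mx1-Cre-negative, so the recombinase itself differs between WT and every mutant. Mx1-Cre acts in hematopoietic stem cells and also outside the blood system. T1 stands for marrow taken 2 weeks after pIpC, T2 for 2 months and T3 for 4 months, with 1 library for each of the 4 genotypes at each time point. How many mice stood behind a library is not given in the sources used here. P-values below therefore treat the 3 time points of a genotype as its replicates.

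Of the cells deposited as G12D T1, 2896 (51.3%) also occur among the G12D/E2-KO T1 cells, where they make up 95.1%. The matched cells had Ezh2 at 20.9 CPM (UMIs per 1000000 UMIs of the cells named), and the 2752 G12D T1 cells without a match had it at 86.3 CPM. Matched cells were counted for G12D/E2-KO T1 alone, and results that change with the tables as deposited are given with both. No cell matched in any of the other 65 pairs of libraries. The libraries held 12636998 to 23646292 UMIs each. E2-KO T3 stood apart in its globin content. Xist was at 1296, 1347 and 1357 CPM in WT T3, E2-KO T3 and G12D T3 and at most at 0.608 CPM in the other libraries, so by this gene the T3 libraries of WT, E2-KO and G12D came from female mice and that of G12D/E2-KO did not.

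The 5 beta-like genes of the tables lie on the minus strand of chromosome 7 in GRCm38, from Hbb-bt (103812524 to 103813996) through Hbb-bs (103826534 to 103828096), Hbb-bh2 (103839124 to 103840520) and Hbb-bh1 (103841637 to 103843164) to Hbb-y (103851749 to 103853216). The alpha-like genes lie on the plus strand of chromosome 11, from Hba-x (32276400 to 32278116) through Hba-a1 (32283511 to 32284465), Hbq1b (32286965 to 32287784) and Hba-a2 (32296489 to 32297298) to Hbq1a (32300069 to 32300873). Promoter sequences of RefSeq (GRCm38.p6) are shown for 5 genes, and exact matches to 4 short motifs are marked in them. Each line holds the 130 bases that end just before the RefSeq start of the gene, 5′ to 3′ on the strand of the gene. The gene bounds above are those of GENCODE and differ from the RefSeq starts, so the windows of Hbb-bs, Hba-a1 and Hba-x lie within them. Capitals mark the CACCC box, the CCAAT box, the TATA motif ATATAA and the GATA motif GATAA on either strand.
Hbb-bs: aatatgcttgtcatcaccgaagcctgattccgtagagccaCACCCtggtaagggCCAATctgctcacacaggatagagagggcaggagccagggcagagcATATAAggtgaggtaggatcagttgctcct
Hbb-bt: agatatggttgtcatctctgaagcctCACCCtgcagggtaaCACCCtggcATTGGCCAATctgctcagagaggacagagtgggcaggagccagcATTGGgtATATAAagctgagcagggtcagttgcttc
Hba-a1: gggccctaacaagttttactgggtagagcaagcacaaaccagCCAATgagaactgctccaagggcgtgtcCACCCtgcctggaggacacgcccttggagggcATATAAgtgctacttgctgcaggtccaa
Hbb-y: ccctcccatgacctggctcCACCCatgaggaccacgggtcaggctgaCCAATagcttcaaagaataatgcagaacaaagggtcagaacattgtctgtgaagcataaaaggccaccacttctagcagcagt
Hba-x: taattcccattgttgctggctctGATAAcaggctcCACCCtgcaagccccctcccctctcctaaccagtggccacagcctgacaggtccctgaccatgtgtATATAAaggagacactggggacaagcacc
The windows are chr7:103827929-103828058 and chr7:103813924-103814053 (minus strand), chr11:32283542-32283671 (plus strand), chr7:103853208-103853337 (minus strand) and chr11:32276470-32276599 (plus strand). Hbb-bs held CACCC at -90, CCAAT at -76 and ATATAA at -30, counted from the RefSeq start, and Hbb-bt held them 1 base nearer, with a further CACCC and 2 matches of CCAAT on the reverse strand. Hba-a1 held CCAAT at -88, CACCC at -60 and ATATAA at -28. Its 300-base window shared a run of 297 bases with that of Hba-a2, so only Hba-a1 is printed. The longest run shared by the windows of Hbb-bs and Hbb-bt was 14 bases. Hbb-y held CACCC at -111 and CCAAT at -83 without an ATATAA match. Only exact letters were searched and variant boxes were not counted, so this does not mean that Hbb-y lacks a TATA box. Hba-x held GATAA at -107, CACCC at -95 and ATATAA at -29 without a CCAAT match. The window of Hbq1b held none of the 4 motifs. Over all 32851 promoters, windows of this length held CACCC in 33.7%, CCAAT in 22.4%, ATATAA in 4.75% and GATAA in 11.4%, so these matches are a description of the letters and not of bound factors.

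The adult copies resemble each other at the end that 3' chemistry reads. Of the 60-base stretches in the last 400 transcript bases, 53.4% in Hbb-bs also occur in Hbb-bt, 82.4% in Hba-a1 also occur in Hba-a2, and 27.9% in Hbq1a also occur in Hbq1b. The embryonic members and Hbq1b shared none with another member. How the counting split reads between Hbb-bs and Hbb-bt, between Hba-a1 and Hba-a2, and between Hbq1a and Hbq1b is therefore uncertain, and the sums of each pair do not depend on it. UMIs of a 3' library were not divided by transcript length, so levels of different genes are compared as UMI counts.

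Globin-high cells made up 5.11, 9.99 and 6.82% of the cells in WT at T1, T2 and T3 and 11.7, 8.49 and 22.2% in E2-KO. They made up 6.54, 5.64 and 3.06% in G12D and 7.56, 5.23 and 4.20% in G12D/E2-KO. E2-KO T3 had the highest share (574 cells, exact 95% binomial interval 20.6 to 23.8%) and G12D T3 the lowest (78 cells, 2.42 to 3.80%), and these intervals cover counting error only. With G12D the share was lower in 5 of 6 pairs of libraries at equal time point, by a mean of -5.34 percentage points (SD 6.56, exact sign-flip permutation p = 0.0625, adjusted p = 0.208 over 10 tests). With Ezh2 deleted it differed by a mean of 3.70 points (SD 6.36), higher in 4 of 6 pairs (exact p = 0.25, adjusted p = 0.446). Leaving out single libraries gave -6.69 to -2.81 points for G12D, nearest to 0 without E2-KO T3 or G12D/E2-KO T3, and 1.36 to 4.74 points for Ezh2 deletion, nearest to 0 without WT T3 or E2-KO T3. Neither difference passed, and the smallest p that 6 pairs allow is 0.031. As deposited, G12D T1 held 397 globin-high cells (7.03%).

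The cells chosen by globin content carried other marks of erythroid cells. With levels taken per 1000000 UMIs of genes other than globins, Alas2, the erythroid enzyme of heme synthesis, had a median over libraries 349 times that of the other cells, and Slc4a1, the band 3 anion exchanger of the red cell membrane, 124 times. Bpgm (the enzyme that makes 2,3-bisphosphoglycerate) had a ratio of 71.0, Hemgn of 23.2, Tfrc (transferrin receptor) of 10.6 and Klf1 of 8.32. Each of these 6 genes was higher in globin-high cells in 12 of 12 libraries. Ahsp, the alpha-hemoglobin chaperone, is not analysed here. The defining genes of granulocytes were not at 0: Ngp had a ratio of 0.120 and Camp of 0.132, and 0 to 3 globin-high cells per library passed a gate on Ngp, Camp, Ltf and Lcn2. Within globin-high cells Ngp was at 1467 to 2635 in WT and at 459 to 642 in E2-KO. It was at 1966 to 2545 in G12D and at 870 to 1775 in G12D/E2-KO. Ngp and Camp were both lower with Ezh2 deleted in every pair at equal time point. The part of this granule RNA in the results, also in those of Ezh2 deletion, was not tested. Few cells lay near the limit, with 10 to 39 cells per library between 500 and 1000 adult globin UMIs per 10000 and 7 to 48 between 1000 and 2000.

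Within globin-high cells the 4 adult genes made up 41.9 to 59.5% of all UMIs. These levels are a description, since the genes chose the cells. Hbb-bs was at 261935, 291001 and 268842 CPM in WT and at 277254, 275162 and 259756 CPM in E2-KO. It was at 212401, 239397 and 211854 CPM in G12D and at 216669, 238949 and 303227 CPM in G12D/E2-KO. The 3 G12D libraries lay below all 6 libraries of WT and E2-KO, and G12D/E2-KO lay within the range of G12D at T1 and T2 and was the highest of all 12 at T3. Hbb-bt was at 67779, 80041 and 74173 CPM in WT, 92330, 89803 and 96601 CPM for E2-KO, 64771, 71908 and 63834 CPM in G12D, and 70961, 74558 and 88337 CPM in G12D/E2-KO. All 3 E2-KO libraries were above the other 9. Hba-a1 ran from 86217 CPM (G12D/E2-KO T1) through a median of 110909 to 123871 CPM (WT T2), and Hba-a2 from 52955 through 75009 to 92462 CPM in the same libraries. The genotypes overlapped for both alpha genes.

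The embryonic genes were present at far lower levels, and each was detected in the globin-high cells of all 12 libraries. Hbb-bh1 was at 535, 527 and 579 CPM in WT, 662, 536 and 900 CPM for E2-KO, 414, 610 and 674 CPM in G12D, and 359, 547 and 746 CPM in G12D/E2-KO, with 213 to 1841 UMIs per library. Each mutant group had a wider range than WT. G12D and G12D/E2-KO reached below and above it, and E2-KO only above. Hbb-y was at 115, 70.8 and 95.9 CPM in WT, 90.4, 72.6 and 132 CPM for E2-KO, 98.7, 78.3 and 75.9 CPM in G12D, and 88.6, 86.8 and 107 CPM in G12D/E2-KO. Its groups overlapped throughout. Hba-x, the embryonic alpha-like gene, was the lowest of the 8, between 5.85 CPM (G12D/E2-KO T1, 7 UMIs) and 35.7 CPM (E2-KO T3, 73 UMIs), and G12D T3 gave 2 UMIs (6.32 CPM). By the median UMI level over libraries the order was Hbb-bs, Hba-a1, Hba-a2, Hbb-bt, Hbb-bh1, Hbq1b, Hbb-y and Hba-x. The ranges of Hba-a1, Hba-a2 and Hbb-bt overlapped, and those of the other neighbours did not.

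Embryonic transcripts were spread over many cells. At least 1 UMI of Hbb-bh1 was found in 2162 of the 2607 globin-high cells (82.9%, 76.1 to 94.9% by library), with at most 24 UMIs in a cell, and the top 1% of cells held 5.49% of its UMIs. Hbb-y was found in 31.5% of these cells and Hba-x in 9.63%. For Hba-x the top 1% of cells held 20.8% of the UMIs, a share that rises as counts fall, and a single cell held 12 of 284. For comparison, among 9141 cells with granule genes (Ngp, Camp, Ltf and Lcn2 together at least 100 per 10000 UMIs), 0.208% had an Hbb-bh1 UMI, 0.0547% an Hbb-y UMI and 0.0328% an Hba-x UMI. The median cell held 3733 UMIs in the globin-high class and 4390 in the granule class, and the part of depth in these shares was not tested.

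**Figure D1:**
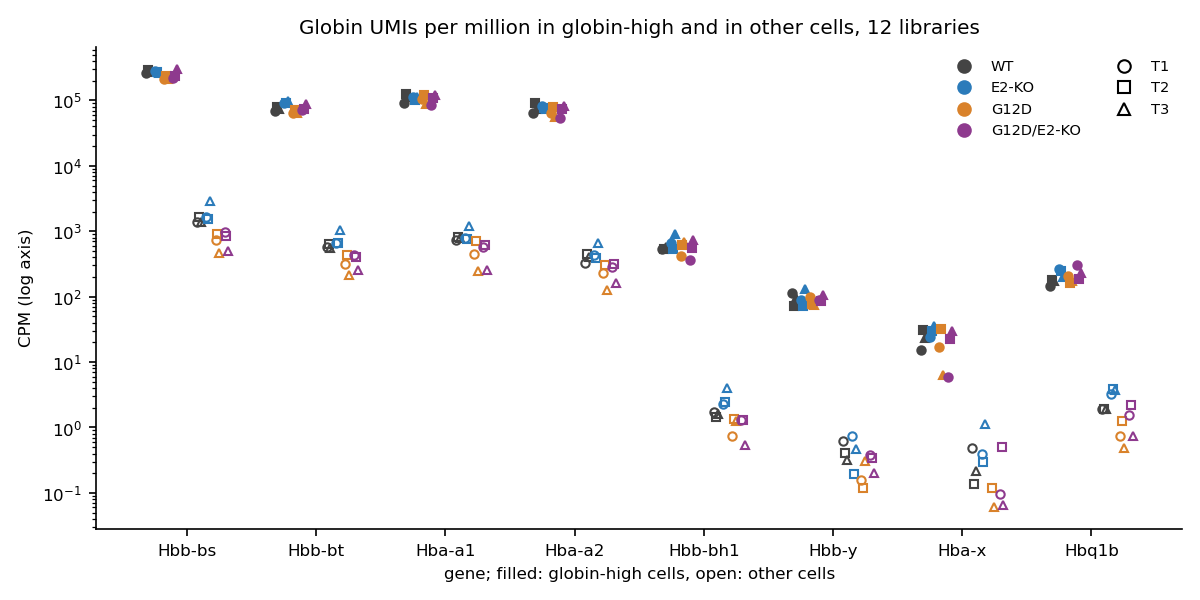
CPM of the 8 globin genes (log axis) in globin-high cells (filled) and in all other cells (open), 1 point per library, coloured by genotype and shaped by time point. The adult genes chose the globin-high cells, so their higher level there was set by the rule. The embryonic genes and Hbq1b were also higher in globin-high cells than in other cells in all 12 libraries. Hba-x in the other cells of G12D T1 is at 0 and not drawn.

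Hbq1b, the theta gene between the alpha genes, was at 146, 179 and 173 CPM in WT, 261, 250 and 202 CPM for E2-KO, 210, 162 and 171 CPM in G12D, and 304, 184 and 229 CPM in G12D/E2-KO. The 6 libraries with Ezh2 deleted lay between 184 and 304 CPM and the 6 with Ezh2 intact between 146 and 210 CPM, so G12D T1 at 210 CPM lay above E2-KO T3 and G12D/E2-KO T2 and the groups overlapped there alone. All 8 members passed the filter on low counts in the fits of all cells and of globin-high cells, through libraries with and without each lesion. Of the 4 members that did not choose the cells, Hbq1b alone passed the test of Ezh2 deletion in globin-high cells, in which 3.74% of 4678 genes were called (2.52% higher). Its log2 difference was 0.58 (SE 0.16, edgeR quasi-likelihood test with Benjamini-Hochberg adjustment, adjusted p = 0.0339). The call was lost with the tables as deposited (0.51, adjusted p = 0.124). It was also lost without WT T1, WT T3, E2-KO T1, E2-KO T2, G12D T1, G12D T2, G12D T3 or G12D/E2-KO T1, when the log2 difference was 0.47 to 0.64 and the edgeR adjusted p 0.058 to 0.116. The other 3 members differed by 0.30 (Hbb-bh1, edgeR adjusted p = 0.363), 0.23 (Hbb-y, 0.486) and 0.14 (Hba-x, 0.865), and none passed. The adult genes had log2 differences of 0.44 (Hbb-bt), 0.26 (Hbb-bs), 0.22 (Hba-a2) and 0.19 (Hba-a1) in this fit, given without a test.

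None of the 4 testable members differed with G12D in globin-high cells, where 0.299% of all genes were called. The log2 differences were -0.30 for Hbb-bh1, -0.20 for Hbb-y, -0.66 for Hba-x and -0.09 for Hbq1b (edgeR adjusted p 0.556 to 0.931, unadjusted p at least 0.0502). Between T3 and T1, for which 0.0855% of all genes were called, Hbb-bh1 was 0.72 higher at T3 on the log2 scale (SE 0.21) and higher in all 4 genotypes. It did not pass (edgeR adjusted p = 0.494, unadjusted 0.0022). The T3 libraries of WT, E2-KO and G12D were female by Xist and no T1 library was. Time and sex can thus not be told apart in these genotypes. No member passed the interaction test, that is, a difference with Ezh2 deletion that itself depends on G12D, for which 0.342% of all genes were called.

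The remaining globin symbols of the tables were followed as well. Hbb-bh2 was at 31.8 to 67.9 CPM in globin-high cells, on 12 to 139 UMIs per library. Hbq1a was at 18.9, 19.1 and 13.7 CPM in WT, 19.9, 14.5 and 23.0 CPM for E2-KO, 5.74, 10.2 and 6.32 CPM in G12D, and 5.85, 11.4 and 11.02 CPM in G12D/E2-KO, on 2 to 47 UMIs. Every library with G12D was below every library without it, and how many of all genes part in this way was not counted. The gene reached the low-count limit (10 UMIs at the median library size) in 6 of 6 libraries without G12D and in 0 of 6 with it, so it entered the fit through the libraries where it was high, and these levels are given without a test.

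Summed over all cells of a library, 85.3 to 94.8% of the adult globin UMIs lay in globin-high cells, a share that depends on the rule by which these cells were chosen. Fewer erythroid cells and less globin RNA per cell cannot be told apart in these sums. Adult globins together ran from 8897 CPM in G12D T3 to 92841 CPM in E2-KO T3. Hbb-bs ran from 4428 to 44448 CPM and Hbb-bh1 from 13.9 to 149 CPM, with both extremes in those same libraries. With G12D all 8 members had values below 0, with log2 differences of -0.92 (Hbq1b) to -1.55 (Hba-x), and 0 of 8 passed (edgeR adjusted p 0.0837 to 0.209) where 5.18% of 12848 genes were called (2.61% lower). DESeq2 called Hba-x (adjusted p = 0.0107). Hbq1a held 34 UMIs in the libraries with G12D and 146 in those without, and it too reached the low-count limit in none of the former and in all 6 of the latter. Without E2-KO T3 these differences with G12D were smaller, down to -0.48 for Hbb-y. With Ezh2 deleted all 8 had values above 0, from 0.53 (Hba-a1) to 0.96 (Hbq1b). Without E2-KO T3 they fell to 0.011 (Hba-a1), 0.073 (Hbb-y), 0.076 (Hba-a2), 0.15 (Hbb-bs) and at most 0.55 (Hbq1b). Again 0 of 8 passed (edgeR adjusted p 0.179 to 0.503) where 6.90% of genes were called. For the interaction (0.0934% called) and for T3 against T1 (0.00% called by edgeR, 1677 genes at unadjusted p under 0.05 and 18 by DESeq2) no member passed.

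Of the 4 ratios examined, that of Hbb-bs to Hbb-bt was the one by which WT stood apart from every mutant. In globin-high cells WT had ratios of 3.86, 3.64 and 3.62 and G12D of 3.28, 3.33 and 3.32, while E2-KO had ratios of 3.003, 3.06 and 2.69 and G12D/E2-KO of 3.05, 3.205 and 3.43. The means were 3.71 ± 0.135 (WT), 3.31 ± 0.0263 (G12D), 2.92 ± 0.201 (E2-KO) and 3.23 ± 0.191 (G12D/E2-KO; SD, n = 3). All 3 WT libraries were above all 9 mutant libraries, a grouping that was noticed in the values and not tested. WT is also the only genotype without Mx1-Cre, and the genotype and the recombinase cannot be told apart here. Over the designed pairs the log2 ratio was lower with Ezh2 deleted by a mean of -0.19 (SD 0.19), in 5 of 6 pairs (exact sign-flip permutation p = 0.0625, adjusted p = 0.208), and it differed by -0.01 with G12D (SD 0.21, adjusted p = 0.969).

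The position of WT was followed over globin content as well, which is no separate support, since the class from 3000 upward holds 2115 of the 2607 globin-high cells and the class under 10 holds globin RNA at the level of background. From 3000 adult globin UMIs per 10000 upward, the ratio was 3.69 to 4.03 in WT and 2.72 to 3.49 in the mutants. Below 10 per 10000 it was 4.38 to 4.61 in WT and 2.80 to 3.76 in the mutants, where E2-KO T3 gave 14 cells. In cells with granule genes it was 4.17 to 4.59 in WT and 3.04 to 3.96 in the mutants. Between 100 and 1000 per 10000 WT did not stand apart, with 1.86 to 1.92 against 1.35 to 2.09 in the mutants. Between 1000 and 3000 it was 2.69 to 2.90 in WT and 2.24 to 2.87 in the mutants, and 2 of 3 WT libraries were above all mutants. At 10 to 100 per 10000 1 of 3 was. Among the other cell gates all 3 WT libraries were above all mutants with monocyte genes, 2 with megakaryocyte genes, 1 with primary granule genes, and 0 with early erythroid genes. With B lymphoid genes 0 of 3 were above the 8 mutant libraries that gave a ratio.

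For Hba-a1 to Hba-a2, WT had a mean of 1.40 ± 0.0696, E2-KO of 1.40 ± 0.0876, G12D of 1.57 ± 0.0413 and G12D/E2-KO of 1.53 ± 0.0820 (SD, n = 3). Its log2 value was higher with G12D in 5 of 6 pairs, by 0.15 (SD 0.10, exact permutation p = 0.0625, adjusted p = 0.208), and differed by -0.02 with Ezh2 deleted (adjusted p = 0.446). The 3 G12D libraries (1.53 to 1.62) were above the 6 of WT and E2-KO (1.34 to 1.502), and G12D/E2-KO (1.48 to 1.63) overlapped with both. Alpha to beta UMIs ran from 0.473 (WT T1) to 0.646 (G12D T2), and its log2 value differed by -0.10 with Ezh2 deleted and by 0.10 with G12D (adjusted p = 0.446 for each, exact permutation test). Since the alpha and beta transcripts differ in sequence and capture, this ratio is not a ratio of chains.

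Embryonic UMIs (Hbb-bh1, Hbb-y and Hba-x) per 1000000 adult UMIs numbered 1373, 1072 and 1321 for WT, 1379, 1175 and 1964 for E2-KO, 1192, 1408 and 1808 for G12D, and 1063, 1318 and 1488 for G12D/E2-KO. The groups overlapped, with means of 1255 ± 161, 1506 ± 410, 1469 ± 312 and 1289.5 ± 214 (SD, n = 3). The log2 ratio differed by 0.03 (SD 0.30) with Ezh2 deleted and by 0.01 (SD 0.38) with G12D (adjusted p = 0.969 for each, exact permutation test), and either difference changed sign when single libraries were left out. None of the 10 tests of shares and ratios passed after adjustment. With 6 pairs none could pass unless most of the 10 gave the smallest p of 0.031. That none passed therefore does not show that the genotypes are alike.

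**Figure D2:**
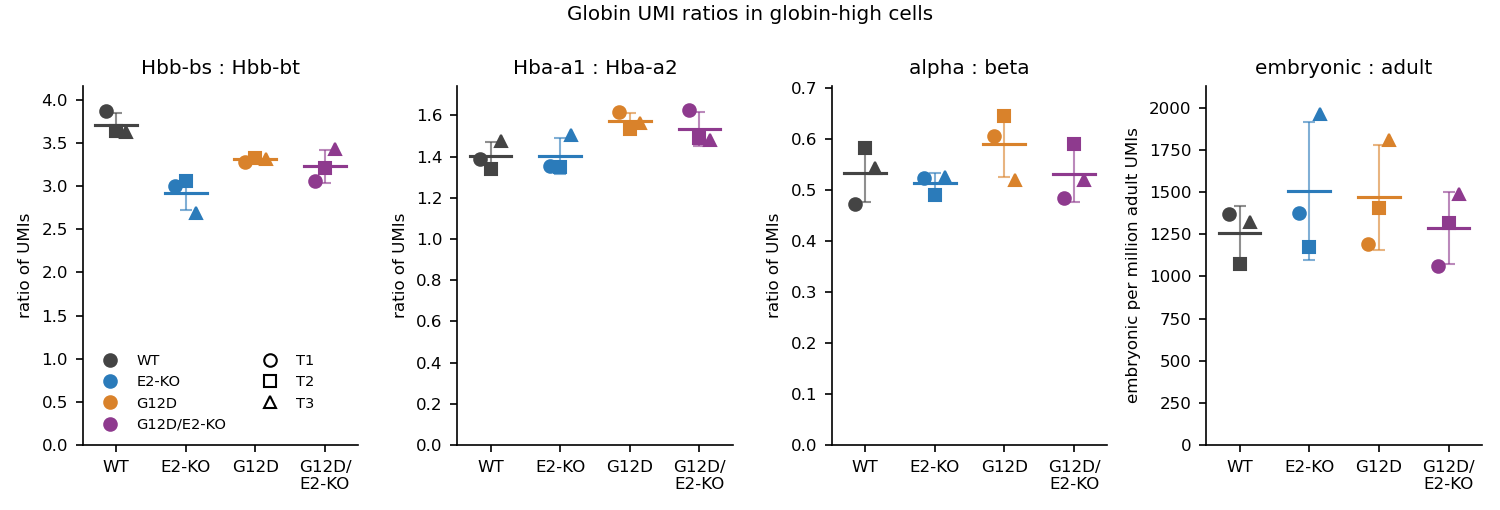
UMI ratios in globin-high cells, 1 point per library, with the mean as a line and the SD (n = 3) as a bar for each genotype. Axes start at 0, and the last panel gives embryonic UMIs per 1000000 adult UMIs. The 3 WT libraries lie at 3.62 to 3.86 for Hbb-bs to Hbb-bt, above the mutants at 2.69 to 3.43, while the genotypes overlap in the embryonic share.

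The globin RNA outside globin-high cells did not hold the genes in the same proportions. The cells were divided by the sum of the same adult genes, so these differences are a description. In the other cells Hbb-bs to Hbb-bt was lower than in the globin-high cells of the same library in 11 of 12 libraries, by a log2 difference of -0.50 (SD 0.21). Hba-a1 to Hba-a2 was higher in 12 of 12, by 0.39 (SD 0.15). Alpha to beta was higher in 10 of 12, by 0.12 (SD 0.14). Embryonic to adult was lower in 12 of 12, by -0.72 (SD 0.33). The first 3 directions depend on which cells are taken: in granule gene cells alone the log2 differences were 0.17 for Hbb-bs to Hbb-bt, -0.54 for Hba-a1 to Hba-a2 and -0.49 for alpha to beta, each of the opposite sign.

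The other cells were also divided by marker genes. Of the early erythroid markers, Klf1 and Car2 were higher in globin-high cells than in other cells (ratios of 8.32 and 11.2). The early erythroid gate is therefore early mainly because its cells lie below the globin limit. Early erythroid cells, gated by Car1, Car2 and Klf1 (4681 cells), held Hbb-bs to Hbb-bt at 1.51 to 2.28 (median 1.95), Hba-a1 to Hba-a2 at 2.03 to 2.74 (median 2.36) and alpha to beta at 0.557 to 0.946 (median 0.714). Granule gene cells (9141 cells) held the same ratios at 3.04 to 4.59 (median 3.598), 0.767 to 1.498 (median 1.03) and 0.298 to 0.598 (median 0.371). The ranges of these cell classes did not overlap for Hbb-bs to Hbb-bt and for Hba-a1 to Hba-a2, and for alpha to beta they overlapped at 0.557 to 0.598. Cells that passed no gate held Hbb-bs to Hbb-bt at 1.24 to 3.95 (median 3.33). Their lowest value, in G12D/E2-KO T3 (853 cells), was below all early erythroid values and came with alpha to beta at 0.230. Adult globins were at 2949 to 12620 CPM in the early erythroid gate and at 515 to 3726 CPM in the granule gate. The granule gene cells stand for a class that should lack globin transcription, and in 12 of 12 libraries the early erythroid level was above theirs, by 2.86-fold to 13.3-fold. How much of the globin RNA in either class was free RNA was not tested.

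Ordered by globin content, the ratios turned at intermediate levels. From under 10, through 10 to 100, 100 to 1000 and 1000 to 3000, to at least 3000 adult UMIs per 10000, the classes held 15409, 13600, 1085, 492 and 2115 cells. The median over libraries of Hbb-bs to Hbb-bt was 3.64, 2.80, 1.88, 2.51 and 3.45 in these classes. Hba-a1 to Hba-a2 was 0.965, 1.48, 2.61, 2.00 and 1.45, and alpha to beta 0.369, 0.486, 0.726, 0.572 and 0.525. Between the class of 100 to 1000 and that of at least 3000 the libraries did not overlap, with 1.35 to 2.09 against 2.72 to 4.03 for Hbb-bs to Hbb-bt and 2.24 to 3.06 against 1.30 to 1.52 for Hba-a1 to Hba-a2. The classes were formed from the sum of the same 4 genes, so the course is a description. The thinnest cell counts were 9 cells for G12D/E2-KO T3 between 1000 and 3000 and 14 for E2-KO T3 under 10.

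**Figure D3:**
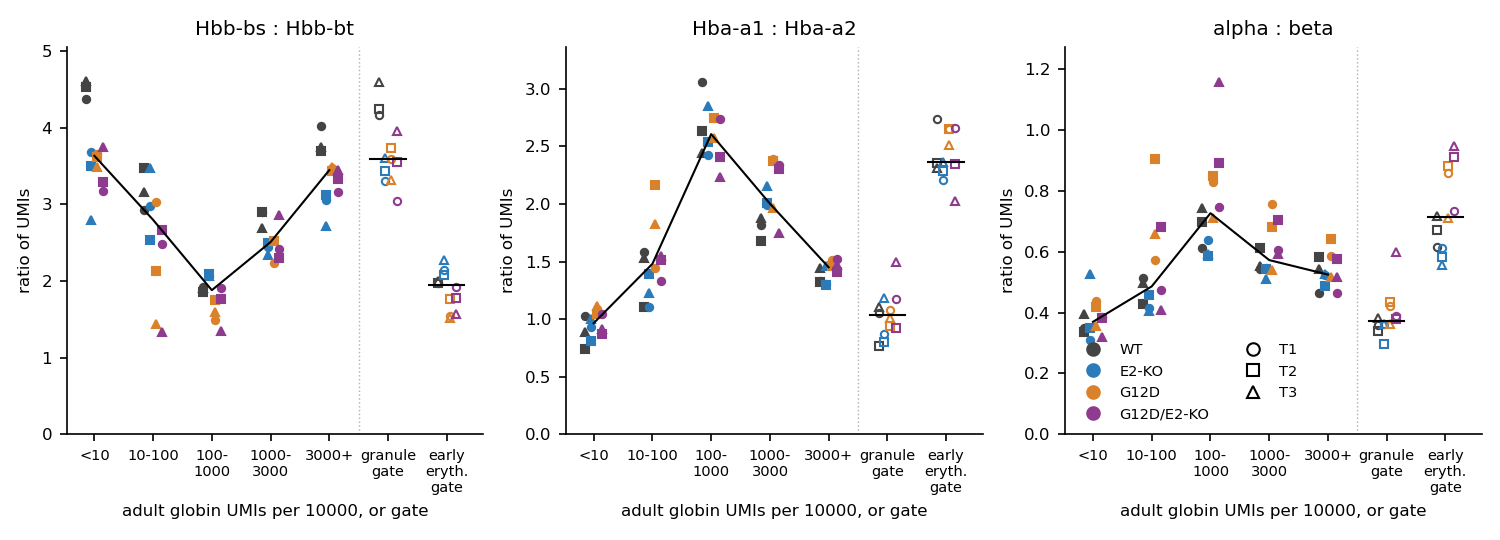
Ratios of globin UMIs by adult globin UMIs per 10000 UMIs of a cell (5 classes, left of the dotted line) and in cells gated by granule or early erythroid genes among cells that are not globin-high (right, open points). Points are libraries and black lines are medians over 12 libraries, with Hbb-bs to Hbb-bt lowest (1.88) and Hba-a1 to Hba-a2 highest (2.61) at 100 to 1000.

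The share of the minor globins also differed along this order. Hbb-bh1 per 1000000 adult UMIs, pooled over libraries, was 301, 304, 826, 1025 and 1171 from the lowest to the highest class, with exact 95% Poisson intervals of 231 to 392 at 10 to 100 and 1142 to 1200 at 3000 or more. Hbb-y was 111, 103, 149, 178 and 182, and its intervals overlapped between neighbouring classes. Hba-x was highest at 100 to 1000, with 127 (40 UMIs, 90.4 to 172) against 47.3 at 3000 or more (41.7 to 53.5). Hbq1b was 317, 571, 886, 745 and 375, with intervals of 785 to 996 at 100 to 1000 and 359 to 391 at 3000 or more. Hba-x and Hbq1b thus had their highest share at intermediate globin content, whereas Hbb-bh1 had its highest share at the top, also without any single library. For Hbb-y the classes from 1000 to 3000 and from 3000 upward did not differ beyond counting error, and their order turned without E2-KO T3 (172 against 167) or G12D T1 (180 against 179). In early erythroid cells Hbq1b stood at 909 per 1000000 adult UMIs (817 to 1009), against 408 (392 to 425) in globin-high and 230 (119 to 402) in granule gene cells. Embryonic UMIs stood at 1018 (920 to 1123), 1387 (1357 to 1417) and 518 (341 to 754) in the same cells. The intervals cover counting error and not the spread between libraries.

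The globin background in granule gene cells was related to the globin content of the library. Adult globins there were at 3.597 to 7.08% of the CPM over all cells, with 515 CPM in G12D T3 and 3726 CPM in E2-KO T3 at the ends. Over 12 libraries the log2 levels had a Pearson r of 0.906 (permutation p = 0.0002, adjusted 0.0004) and a Spearman rho of 0.769 (permutation p = 0.00514, adjusted 0.00514). Without G12D T3 and E2-KO T3, the libraries farthest from the median on the log2 axis, r was 0.656 over 10 libraries (permutation p = 0.0418). Without WT T2 and E2-KO T3, the farthest in CPM, r was 0.775. The granule gene cells are part of all cells, but most of the adult globin UMIs lie elsewhere. Globin levels at or below those of the granule gene cells were read as background and not as expression. This reading uses the level alone. In G12D/E2-KO T3 the cells that passed no gate were at 871 CPM, below the granule gene cells at 983 CPM. Their Hbb-bs to Hbb-bt was 1.24 against 3.96 and their alpha to beta 0.230 against 0.598. Whether such RNA was expressed in these cells was not tested.

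**Figure D4:**
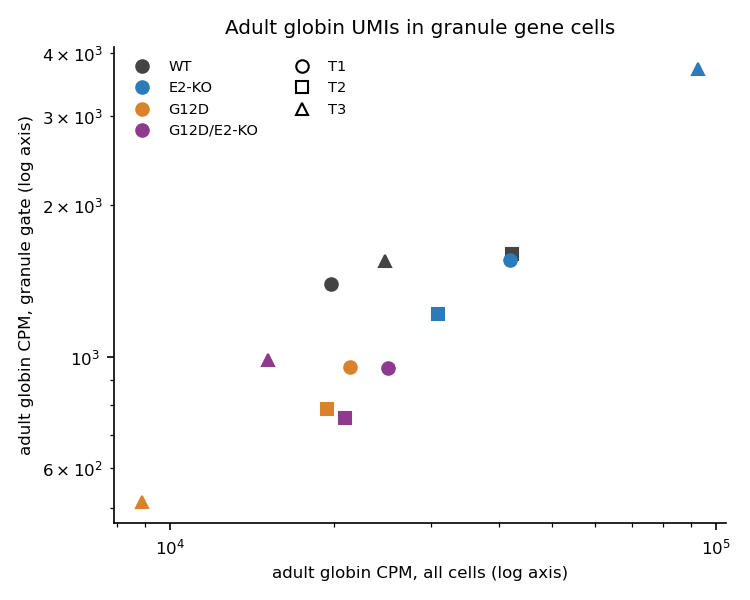
Adult globin CPM in cells with granule genes against adult globin CPM over all cells, both on log axes, 1 point per library. E2-KO T3 is highest on both axes (92841 and 3726 CPM) and G12D T3 lowest (8897 and 515 CPM).

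Genes that act on or with the globins were examined as lists. The share of cells in the early erythroid gate was lower with G12D in 5 of 6 pairs, by a mean of -8.98 percentage points (SD 6.38), with 17.8 to 21.3% of cells in WT, 13.3 to 23.3% in E2-KO, 6.23 to 18.3% in G12D and 6.70 to 10.9% in G12D/E2-KO. Its part in the differences over all cells was not tested. In a list of 8 activators of the globin loci and factors that act with them, 4 were lower with G12D over all cells, namely Gata1 (-0.91, the master factor of erythroid genes), Klf1 (-0.94, which binds CACCC boxes of the adult beta genes), Zfpm1 (-0.77, the GATA1 cofactor FOG1) and Gfi1b (-0.70, itself a repressor, needed in erythroid cells), as log2 differences, where 2.61% of all genes were called lower. Of 12 genes of heme synthesis and mitochondrial import 4 were lower, Tmem14c (-0.73), Slc25a38 (-0.55), Uros (-0.77) and Urod (-0.62). Of 8 tested genes of hemoglobin assembly and iron 4 were lower, Hebp1 (-1.12), Blvrb (-0.94), Slc11a2 (-0.67) and Fth1 (-0.35, a ferritin chain). Of 14 red cell membrane genes 4 were lower, Ermap (-0.92), Aqp1 (-0.88), Icam4 (-0.82) and Add2 (-0.95). No gene of these 4 lists was called higher, their medians were -0.64, -0.59, -0.54 and -0.81, and the median of all genes was near 0 (-0.0049). Of 11 tested repressors and timing factors of embryonic globins 1 was lower, Bcl11a (-0.52), which silences embryonic and fetal globin genes, and the list median was -0.21. Bcl11a is also a gene of B lymphoid cells. Its median over libraries was 104 per 1000000 UMIs of other than globin genes in cells under 10 adult globin UMIs per 10000 and 21.6 in those from 3000 upward. The share of cells in the B lymphoid gate was lower with G12D in 5 of 6 pairs (0.0382 to 4.77% of cells with G12D, 0.712 to 14.1% without), and its part in the Bcl11a difference was not tested. The edgeR adjusted p of these 17 calls was 0.0215 to 0.04998, and all 17 were lost when WT T1, WT T3, E2-KO T1, E2-KO T2, G12D T1, G12D T3 or G12D/E2-KO T2 was left out, when 2 to 28 genes were called in all. Of the 17, 16 were lost without E2-KO T3, 10 without G12D/E2-KO T1, 4 without G12D/E2-KO T3, 2 without WT T2 and 0 without G12D T2. Without the filter on low counts the calls of Klf1, Uros, Fth1 and Add2 were lost (edgeR adjusted p 0.0732, 0.0542, 0.0558 and 0.0615), and that of Urod was lost with the tables as deposited, with RLE factors or with globins left out of the scaling (edgeR adjusted p 0.0568, 0.0528 and 0.0502). Without the replicate block the calls of Klf1, Uros, Urod and Slc25a38 were lost (edgeR adjusted p 0.0567 to 0.102). In globin-high cells 0 of the 50 list genes tested were called with G12D, where 0.299% of all genes were, and their medians lay between -0.12 and 0.20.

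With Ezh2 deleted and Lin28b set aside, none of the list genes tested over all cells was called, where 6.90% of all genes were. Lin28b encodes an RNA-binding protein of fetal blood cells that favours fetal-type programs. It had 112 UMIs in the 6 libraries with Ezh2 deleted (9 to 34 each) and 0 in the 6 others, at least 38.9-fold higher against a floor of 3 UMIs over the group. With the tables as deposited G12D T1 held 33 Lin28b UMIs, and the log2 difference was 4.56. Lin28b entered the fit through the libraries where it was high (4 of 6 reached the low-count limit, and 0 of the others), so it is given without a test. Only 1 of these UMIs was in a globin-high cell. In the same cells WT had Ezh2 itself at 127, 76.5 and 101 CPM and G12D at 122.8, 109 and 126 CPM, whereas E2-KO had it at 31.4, 27.2 and 44.5 CPM and G12D/E2-KO at 30.9, 38.4 and 30.3 CPM. Ezh2 RNA was thus lower in the globin-high cells of all 6 libraries with Ezh2 deleted than in the other 6, and some of it remained. For G12D T1 this is no separate support, since the matched cells were taken out of it by their Ezh2 level. Whether the remaining RNA came from undeleted cells was not tested. The embryonic share overlapped between the same sets of libraries.

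Within globin-high cells 2 of 50 list genes tested were called with Ezh2 deleted, both higher, a share near that of all genes (3.74%, 2.52% higher). Tfrc, the transferrin receptor that brings iron into erythroid cells, was at 263, 240 and 319 CPM in WT, 376, 367 and 555 CPM for E2-KO, 456, 254 and 310 CPM in G12D, and 654, 535 and 430 CPM in G12D/E2-KO. Its log2 difference was 0.81 (SE 0.15, edgeR adjusted p = 0.002), and the call was kept without any single library. Slc25a37 (mitoferrin 1, the importer of iron into mitochondria) was at 803, 774 and 768 CPM in WT, 1018, 992 and 1504 CPM for E2-KO, 984, 722 and 787 CPM in G12D, and 1048, 901 and 1449 CPM in G12D/E2-KO. It differed by 0.64 (SE 0.16, edgeR adjusted p = 0.021), and the call was lost without WT T1, WT T3, E2-KO T3, G12D T2 or G12D T3 (0.51 to 0.65, adjusted p 0.0567 to 0.124). Among the list genes that missed the threshold were Ftl1 at -0.43 (edgeR adjusted p = 0.059), Aqp1 at 0.43 (0.067) and Tal1 at 0.50 (0.083).

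**Figure D5:**
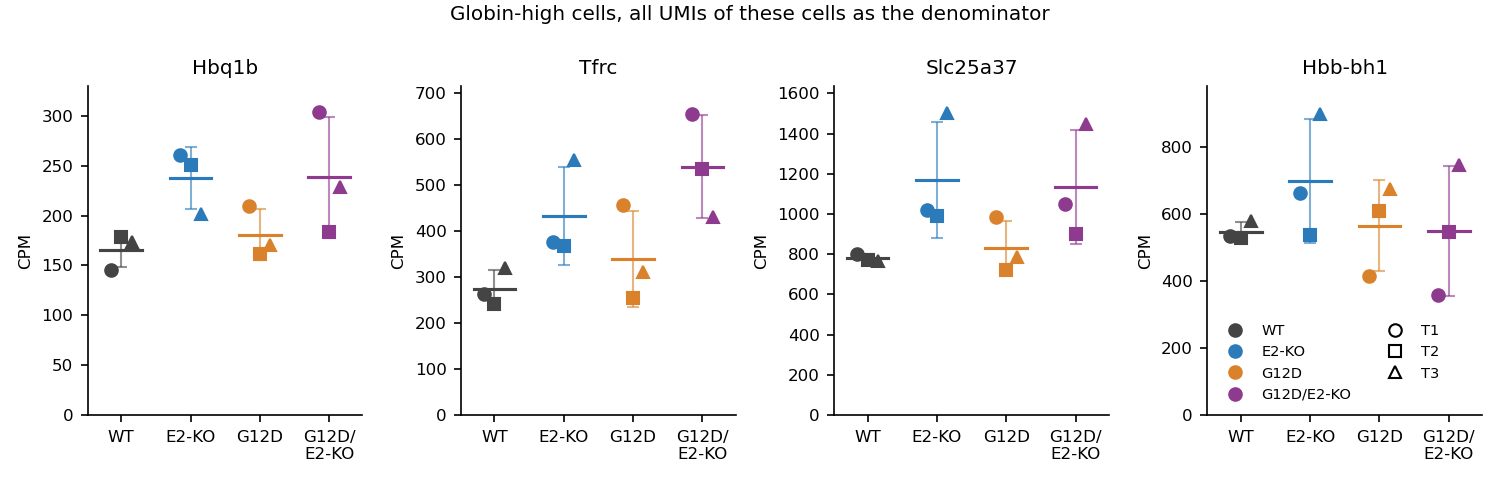
CPM of Hbq1b, Tfrc, Slc25a37 and Hbb-bh1 in globin-high cells, 1 point per library, with the mean as a line and the SD (n = 3) as a bar. Hbq1b lies at 184 to 304 CPM with Ezh2 deleted and at 146 to 210 CPM with Ezh2 intact, while Hbb-bh1 overlaps between all genotypes.

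Over the 12 libraries, the genes most like the summed adult globins among 2260 genes of at least 50 CPM included Hemgn (Pearson r of 0.96), Slc4a1 (0.95), Tfdp2 (0.93) and Slc25a37 (0.88), from log2 CPM over all cells. The 12 points share the number of erythroid cells in each library, and E2-KO T3 is the highest of them. Car1, an early erythroid carbonic anhydrase, had a ratio of only 1.34 between globin-high and other cells, whereas Car2 had 11.2.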

How the data were processed

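Single-cell transcriptomes of c-Kit-positive bone marrow cells were analysed from 12 libraries, 1 per genotype and time point. Each deposited table holds raw UMI counts per gene and cell, for which the authors ran Cell Ranger against mm10 and removed cells with over 10% mitochondrial UMIs and Scrublet doublets before deposit. No further cell filter or doublet caller was applied. Cells with a cosine similarity above 0.9 between tables, over 8000 genes after leaving out the 300.0 most abundant, were taken as the same cell. Groups come from the labels, and the members and lists were chosen with earlier results of these data known.

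UMIs were summed per library over all cells and over globin-high cells, and fitted by the quasi-likelihood method of edgeR 4.0.16 under R 4.3.3 and limma 3.58.1 (TMM, filterByExpr, glmQLFit robust, glmQLFTest), with a term for each genotype and each time point, 6 residual degrees of freedom and two-sided Benjamini-Hochberg adjusted p under 0.05. The E2 effect is the mean of E2-KO minus WT and G12D/E2-KO minus G12D, and the G12D effect the mean of G12D minus WT and G12D/E2-KO minus E2-KO. The fit was tested on simulated data. Shares and log2 ratios (0.5 UMI added to embryonic sums) were tested by exact two-sided sign-flip permutation over 6 pairs at equal time point. The comparison of other cells with globin-high cells over 12 libraries is given without its p, since the same genes divide the cells. Time point is the replicate number and comes from the labels: deviations of same-time libraries correlated at -0.13 to 0.35 (median 0.12, over 0.1 in 11 of 18 pairs). Named genes were the 8 members, other globin symbols, list genes that were called or had the lowest p up to 3 per list, and the 5 genes most like the adult globins, of which a few are not reported here. Gates summed markers per 10000 UMIs (at least 100 for primary or secondary granule genes, 20 for B lymphoid, megakaryocyte or early erythroid genes, 10 for monocyte genes), and cells passing several gates were set aside. Motifs and shared stretches were searched in the RefSeq promoter table and GENCODE transcripts. Alternatives were DESeq2 1.42.0, RLE factors, no low-count filter, globins left out of the scaling, no replicate block, tables as deposited, limits of 500 and 2000, medians over cells, other background cells, gates at 0.5 and 2 times, and leaving out each library. Python 3.11.15, numpy 2.4.6, scipy 1.17.1 and pandas 2.3.3 were used.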

Additional observations from a re-analysis of the deposited data

Results flagged for a closer look

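The ratio of Hbb-bs to Hbb-bt in globin-high cells differed in opposite directions between G12D and WT and between G12D/E2-KO and E2-KO. Between G12D and WT the log2 ratio differed by a mean of -0.16, lower at 3 of 3 time points. Between G12D/E2-KO and E2-KO it differed by 0.15, higher at 3 of 3 time points, with 0.024 at T1, 0.065 at T2 and 0.35 at T3, and the mean without T3 was 0.044. The difference between these contrasts was not tested. WT alone lacks Mx1-Cre, so G12D and the recombinase cannot be told apart between G12D and WT. The opposite directions can thus not be assigned to Ezh2. By Xist, E2-KO T3 was female and G12D/E2-KO T3 was not, so sex and genotype cannot be told apart in that pair.

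The embryonic to adult ratio likewise differed in opposite directions between E2-KO and WT and between G12D/E2-KO and G12D. Between E2-KO and WT the log2 ratio differed by a mean of 0.24, higher at 3 of 3 time points, with 0.0060 at T1, 0.13 at T2 and 0.57 at T3, and the mean without T3 was 0.069. Between G12D/E2-KO and G12D it differed by -0.18, lower at 3 of 3 time points. The difference between these contrasts was not tested either. Between E2-KO and WT, Ezh2 deletion and the recombinase cannot be told apart, so the opposite directions can not be assigned to G12D. By Xist, G12D T3 was female and G12D/E2-KO T3 was not, so that pair also differs in sex.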

How the results depend on the processing

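Shares and ratios rest on 6 pairs of libraries, so no adjusted p under 0.05 was within reach unless several tests gave the smallest p. Some values near 0 changed sign: for Hbb-bs to Hbb-bt with G12D the log2 difference was 0.0052 with a limit of 2000, for Hba-a1 to Hba-a2 with Ezh2 deleted it was 0.022 as a median over cells, and for embryonic to adult with G12D it was -0.0049 with a limit of 2000, -0.0088 as deposited and -0.0013 for Hbb-bh1 alone. Against globin-high cells, granule gene cells gave 0.17, -0.54 and -0.49 for Hbb-bs to Hbb-bt, Hba-a1 to Hba-a2 and alpha to beta, and cells under 100 adult UMIs per 10000 gave -0.12, -0.22 and -0.26. These alternatives take other cells, and the cause was not tested further. Leaving out each library gave -0.080 to 0.037 for Hbb-bs to Hbb-bt with G12D, -0.081 to 0.090 for embryonic to adult with Ezh2 deleted and -0.084 to 0.086 with G12D, and in globin-high cells -0.075 to 0.39 for Hba-x with Ezh2 deleted and -0.21 to 0.023 for Hbq1b with G12D.

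Counts of called genes moved more, and the cause was not tested. Over all cells they were 440.0 for Ezh2 deletion as deposited (887 reported), 1491 for G12D by DESeq2 (666), 58 for the interaction by DESeq2, 22 without the low-count filter and 0 as deposited (12), and 18 for T3 against T1 by DESeq2 (0). In globin-high cells they were 116 by DESeq2, 101 as deposited, 294 with a limit of 500 and 304 without the filter for Ezh2 deletion (175), 56 without the filter for G12D (14), 4 with a limit of 2000 for the interaction (16), and 1 with a limit of 2000 and 11 without the filter for T3 against T1 (4). Without each library they ran over all cells from 390.0 to 1438, 2 to 1594, 0 to 34 and 0 to 7, and in globin-high cells from 117 to 280.0, 6 to 44, 4 to 15 and 1 to 7, for Ezh2 deletion, G12D, the interaction and T3 against T1. No replicate block gave 5 interaction calls over all cells, and in globin-high cells 2 calls for G12D, 0 for the interaction and 0 for T3 against T1. Without the replicate block no share or ratio passed, and among the members the call of Hbq1b was kept, while among the list genes the G12D calls of Klf1, Uros, Urod and Slc25a38 over all cells were lost (edgeR adjusted p 0.0567 to 0.102).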
